A study of Arabidopsis thaliana with 36 samples.

Results

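The WRKY transcription factors of Arabidopsis thaliana were followed in roots and rosettes of plants mutated in NLP2, in NLP7 or in both. The members were 58 genes chosen by locus code out of 34218 features in the deposited tables. The RefSeq gene table of TAIR10.1 gave each of the 58 codes the same WRKY name, and it names 14 other WRKY genes that were not analysed here. Each gene was taken with its structural group, which is I, IIa to IIe or III. That table's notes give a group for 38 of the 58, the same one for 36 of them and group I for WRKY23 and WRKY45, which are counted here in group IIc.

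The libraries came from plants 42 days old. There were 36 of them, which cover 6 genotypes and both tissues in biological triplicate (n = 3). The mutants are nlp2-2, nlp2-3, nlp7-1 and the double mutant nlp2-3 nlp7-1, and the wild types are Col-4, set against nlp2-2, and Col-0, set against the other mutants. Every group had 3 days of cold stratification and grew in sand with 5 mM nitrate, a supply the labels call non-limiting. Each day had 8 h of light at 21 °C and 16 h of dark at 18 °C. The rosettes are called shoots, as in the labels. The ecotype label reads Col-0 for all of them, the Col-4 and nlp2-2 libraries included, so the name Col-4 comes from the genotype label alone. The labels give neither the kind of lesion in each allele nor the parent line of each mutant, and each allele stands for 1 line. How many plants made up a library is not given in the sources used here.

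WRKY proteins bind DNA through a conserved domain that carries the letters WRKY and a zinc finger, and the sequence they contact, the W box, has the core TTGAC. In leaves the family is best known for defence, where salicylic acid, a hormone made on attack by biotrophic pathogens, raises many members that then activate or repress further defence genes, other WRKY genes included. Members also act in leaf senescence, in epidermal and seed coat development, in auxin responses of the root and in phosphate supply. NLP2 and NLP7 are NIN-like proteins, transcription factors that act in the response of the plant to nitrate.

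Root libraries held 18385020 to 28538665 counts, of which the 58 genes took 0.128 to 0.1747%, and shoot libraries held 18150510 to 31657474 counts, of which they took 0.03238 to 0.06094%. All 58 genes had at least 1 count in each tissue. In roots 56 of them passed the filter on low counts, without WRKY12 and WRKY41, and in shoots 48 did, without WRKY9, WRKY31, WRKY41, WRKY43, WRKY56, WRKY61, WRKY63, WRKY71, WRKY72 and WRKY75. NLP2 had 27.5 to 30.2 CPM, which are counts scaled to a common library total of 1e+06, in nlp2-2 shoots and 38.3 to 43.2 in Col-4 shoots, and 15.4 to 16.8 in nlp2-3 shoots and 52.5 to 54.8 in Col-0 shoots. NLP7 had 18.6 to 23.6 CPM in nlp7-1 shoots and 48.1 to 48.9 in Col-0 shoots, so transcripts of both genes remained in their mutants. In double mutant shoots NLP2 had 8.64 to 9.68 CPM and NLP7 22.0 to 26.0 CPM. In roots NLP2 had 13.1 to 20.8 CPM in nlp2-2 and 54.2 to 57.1 in Col-4, 33.3 to 39.3 in nlp2-3, 88.9 to 101 in nlp7-1, 45.4 to 52.7 in the double mutant and 65.2 to 66.7 in Col-0. NLP7 had 31.9 to 36.8 CPM in nlp7-1 roots, 41.0 to 41.5 in double mutant roots and 92.0 to 113 in Col-0 roots. The summed leaf markers (RBCS1A, LHCB1.1, LHCB2.1, CA1 and RCA) reached at most 32.1 CPM in a root library and at least 41330 CPM in a shoot library, and the summed root markers at most 3.14 CPM in a shoot library. Col-0 root replicate 2 had the lowest value of its group for 48 of the 56 tested genes, with 1282 CPM over the family against 1527 and 1515 CPM in replicates 1 and 3. Without it, double mutant roots lost the calls of WRKY17, WRKY40 and WRKY48 and gained those of WRKY4, WRKY8, WRKY26 and WRKY54, all lower, and nlp2-3 roots lost WRKY23 and WRKY69 and gained WRKY45, which was lower. Calls of differences between tissues that were lost without it are given with those differences.

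In shoots, most WRKY genes called in a mutant were lower than in wild type, and WRKY38, WRKY51, WRKY54 and WRKY58 were lower in each of the 4 comparisons. A gene was called changed when its adjusted p from edgeR's quasi-likelihood test, corrected over all genes tested, was under 0.05. In nlp2-2 shoots 5 WRKY genes were lower and 1 was higher than in Col-4, which is 12.5% of the 48 tested, where 3.06% of all genes tested were called. In nlp2-3 shoots 13 were lower and 0 higher than in Col-0 (27.1% of the 48, against 5.8% of all genes). In nlp7-1 shoots 6 were lower and 1 was higher (14.6%, against 9.77%), and in double mutant shoots 16 were lower and 2 higher (37.5%, against 31.1%). Over all genes the lower calls alone were 2.33, 4.47, 4.93 and 15.6%, with nlp2-2 first, then nlp2-3, nlp7-1 and the double mutant. The median log2 fold change of the 48 was -0.12, -0.24, -0.057 and -0.19 in the same order, and that of all genes lay between -0.0069 and 0.018. The last 3 comparisons share the Col-0 libraries and are set side by side here, not counted as repeats.

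**Figure D1:**
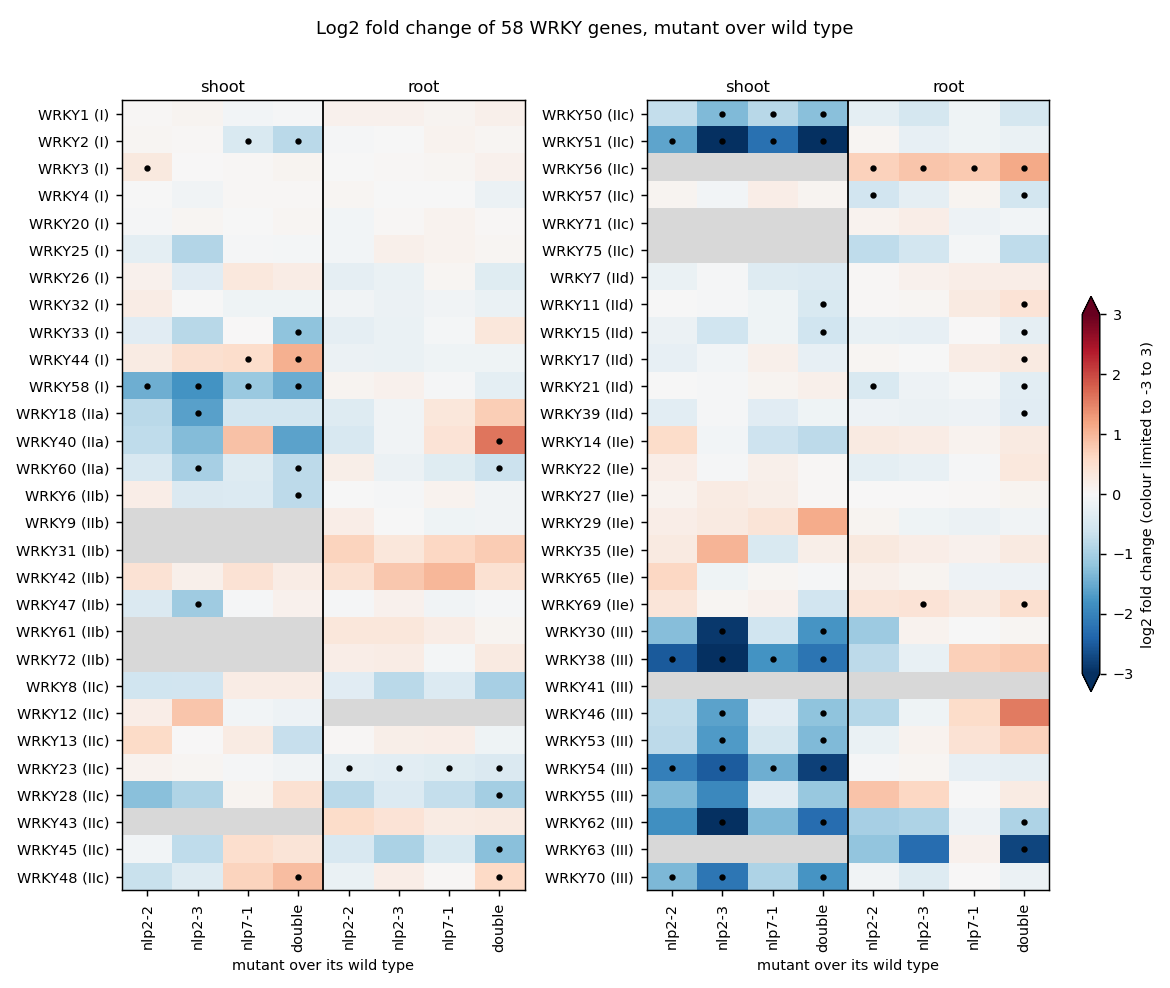
Log2 fold change of the 58 WRKY genes (rows, with the structural group in brackets) in nlp2-2 over Col-4 and in nlp2-3, nlp7-1 and the double mutant nlp2-3 nlp7-1 over Col-0, for shoots and roots. Dots mark adjusted p under 0.05 and grey cells were not tested. Blue cells with dots gather in the shoot columns of group III, WRKY50, WRKY51 and WRKY58, while WRKY56 and WRKY23 carry a dot in all 4 root columns.

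Group III genes made up 3 of the 5 lower calls in nlp2-2 and 7 of the 13 in nlp2-3. Of the group's 8 members tested in shoots, 3 were lower in nlp2-2, 7 in nlp2-3, 2 in nlp7-1 and 7 in the double mutant, and none was higher. Their median log2 fold change was -1.33, -2.33, -0.75 and -1.77 in that order. Group III supplied 16.6 to 20.5% of the WRKY counts in nlp2-2 shoots against 33.6 to 37.9% in Col-4 shoots, and 9.0 to 14.9% in nlp2-3, 20.7 to 23.9% in nlp7-1 and 12.4 to 17.4% in double mutant shoots against 30.6 to 37.6% in Col-0 shoots. Whether cells with these transcripts were fewer or held less of them per cell cannot be told apart in whole rosettes.

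WRKY70 (AT3G56400), which acts downstream of salicylic acid and restrains jasmonate responses, was the most abundant WRKY transcript of Col-0 shoots per length. It had 39.8, 55.99 and 49.8 CPM in the 3 nlp2-2 shoot libraries, against 106, 129.6 and 133 CPM in Col-4 (log2 fold change -1.34 ± 0.28, adjusted p = 0.0211). It had 16.1, 23.9 and 37.6 CPM in nlp2-3, 52.9, 54.8 and 74.8 CPM in nlp7-1 and 27.4, 28.8 and 45.2 CPM in the double mutant, against 109, 96.8 and 139 CPM in Col-0. Every mutant library lay below every library of its wild type. The log2 fold change was -2.16 in nlp2-3 (adjusted p = 0.000417) and -1.76 in the double mutant (adjusted p = 0.000453), and it was -0.92 in nlp7-1 with an adjusted p of 0.0563, which missed the threshold, although DESeq2 called it. The nlp2-2 call was lost without nlp2-2 replicate 1 or 3, or without Col-4 replicate 2 or 3 (adjusted p 0.0362 to 0.105 over the 6 fits that left out 1 library), and the nlp2-3 call in a fit of those 2 genotypes alone.

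WRKY54 (AT2G40750), the closest relative of WRKY70, shares its role in salicylic acid signalling and in holding back leaf senescence. It had 7.53, 8.94 and 11.8 CPM in nlp2-2 shoots against 34.1, 38.3 and 44.6 CPM in Col-4 (log2 fold change -2.05 ± 0.30, adjusted p = 0.0019). In nlp2-3 it had 3.47, 6.10 and 8.51 CPM, in nlp7-1 11.7, 9.88 and 14.9 CPM and in the double mutant 3.20, 3.91 and 7.09 CPM, against 33.1, 28.0 and 39.2 CPM in Col-0. The groups did not overlap in any of the 4 comparisons, and the gene fell in each, with a log2 fold change of -2.50 (adjusted p = 0.000191) in nlp2-3, -1.46 (adjusted p = 0.00648) in nlp7-1 and -2.81 (adjusted p = 2.29e-05) in the double mutant.

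WRKY38 (AT5G22570) is induced by salicylic acid and limits basal defence together with WRKY62. Its shoot level was 0.930, 1.56 and 1.20 CPM in nlp2-2 against 7.36, 6.05 and 7.55 CPM in Col-4 (log2 fold change -2.51 ± 0.43, adjusted p = 0.00288). It was 0.0399, 0.269 and 0.736 CPM in nlp2-3, 2.34, 1.78 and 1.12 CPM in nlp7-1 and 0.469, 1.38 and 2.14 CPM in the double mutant, against 5.96, 5.13 and 7.39 CPM in Col-0, and no mutant library reached the lowest wild-type one. The fold changes against Col-0 were -4.23 (adjusted p = 4.96e-05) in nlp2-3, -1.78 (adjusted p = 0.00878) in nlp7-1 and -2.20 (adjusted p = 0.000693) in the double mutant on the log2 scale. WRKY62 (AT5G01900) had 0.0399, 0.0897 and 0.105 CPM in nlp2-3 and 0.170, 0.0860 and 0.412 CPM in the double mutant, against 1.15, 0.533 and 1.74 CPM in Col-0. It fell by 3.80 on the log2 scale in nlp2-3 (adjusted p = 0.000441) and by 2.29 in the double mutant (adjusted p = 0.00253). Each WRKY62 value in nlp2-3 lay below 3 counts, which are 0.119 to 0.158 CPM there, so the size of that fall is uncertain. Over the alternatives the WRKY62 log2 fold change in the double mutant ran from -3.08 to -0.74. In nlp2-2 and nlp7-1 its log2 fold changes of -1.83 (adjusted p = 0.0559) and -1.34 (adjusted p = 0.0946) missed the threshold. The nlp2-2 value was called by DESeq2, by all 3 limma fits on FPKM and without nlp2-2 replicate 3 (adjusted p 0.00853 to 0.257 over the fits that left out 1 library), and the nlp7-1 value without Col-0 replicate 2.

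WRKY53 (AT4G23810) promotes leaf senescence, and WRKY46 (AT2G46400) acts with WRKY53 and WRKY70 in basal resistance. WRKY53 had 3.71, 1.08 and 1.84 CPM in nlp2-3 shoots, 5.15, 4.43 and 5.70 CPM in nlp7-1 and 3.54, 2.54 and 2.68 CPM in the double mutant, against 7.78, 4.59 and 9.88 CPM in Col-0. It was called lower in nlp2-3 (log2 fold change -1.71 ± 0.35, adjusted p = 0.00701) and in the double mutant (log2 fold change -1.33 ± 0.34, adjusted p = 0.00739). The nlp7-1 values overlapped those of Col-0, with a log2 fold change of -0.53 (adjusted p = 0.353). WRKY46 had 5.63, 4.85 and 6.04 CPM in nlp2-3, 12.1, 12.4 and 15.2 CPM in nlp7-1 and 8.22, 7.48 and 5.89 CPM in the double mutant, against 14.2, 12.3 and 23.95 CPM in Col-0. It fell by 1.60 on the log2 scale in nlp2-3 (adjusted p = 0.000381) and by 1.21 in the double mutant (adjusted p = 0.000827). WRKY30 (AT5G24110), which is induced early by reactive oxygen and pathogen signals, had 0.359, 0.404 and 0.210 CPM in nlp2-3 and 0.682, 0.817 and 0.659 CPM in the double mutant, against 1.53, 2.21 and 3.80 CPM in Col-0. Both mutants lay below Col-0 without overlap, with a log2 fold change of -2.88 (adjusted p = 3.46e-05) in nlp2-3 and -1.77 (adjusted p = 0.000674) in the double mutant. WRKY55 was the tested member of group III with no call in shoots, with log2 fold changes of -1.32 in nlp2-2, -1.93 in nlp2-3, -0.33 in nlp7-1 and -1.13 in the double mutant, at under 1 CPM. Without nlp2-2 replicate 2 its nlp2-2 value was called. WRKY53 in nlp2-3 was not called in a fit of those 2 genotypes alone.

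**Figure D2:**
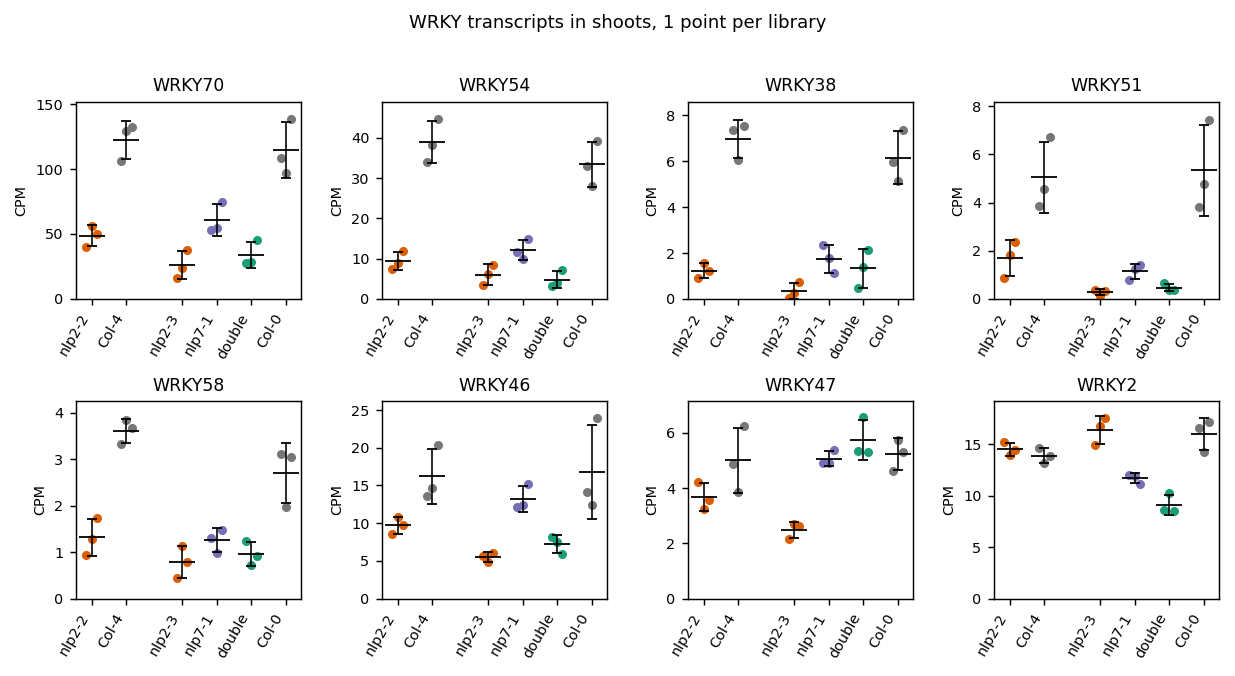
Shoot levels (CPM, linear axes from 0) of 8 WRKY genes in nlp2-2 and Col-4 and in nlp2-3, nlp7-1, the double mutant and Col-0, with 1 point per library, a dash at the mean and bars of 1 SD (n = 3). WRKY70, WRKY54, WRKY38, WRKY51 and WRKY58 lie below wild type in every mutant, WRKY47 lies below Col-0 without overlap in nlp2-3, and WRKY2 does so in nlp7-1 and the double mutant.

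WRKY51 (AT5G64810) and WRKY50 (AT5G26170), group IIc, mediate the repression of jasmonate signalling by salicylic acid. WRKY51 had 0.884, 1.83 and 2.35 CPM in nlp2-2 shoots against 3.86, 4.57 and 6.71 CPM in Col-4 (log2 fold change -1.59 ± 0.32, adjusted p = 0.00444). It had 0.359, 0.135 and 0.315 CPM in nlp2-3, 0.768, 1.25 and 1.39 CPM in nlp7-1 and 0.639, 0.387 and 0.371 CPM in the double mutant, against 3.80, 4.76 and 7.44 CPM in Col-0. The gene fell in all 3, without overlap with Col-0, and the log2 fold change was -4.26 (adjusted p = 1.93e-07) in nlp2-3, -2.23 (adjusted p = 8.68e-05) in nlp7-1 and -3.49 (adjusted p = 1.81e-07) in the double mutant. WRKY50 had 2.98, 2.76 and 2.96 CPM in nlp7-1 and 1.75, 2.45 and 2.22 CPM in the double mutant, against 4.39, 4.55 and 6.63 CPM in Col-0. In nlp2-3 it had 2.04, 2.15 and 1.94 CPM. It was lower in nlp2-3 (log2 fold change -1.33, adjusted p = 0.0003), in nlp7-1 (-0.83, adjusted p = 0.0164) and in the double mutant (-1.26, adjusted p = 0.000125). The nlp7-1 call of WRKY50 was lost without nlp7-1 replicate 1 or 2 or Col-0 replicate 3 (adjusted p 0.0189 to 0.128). In nlp2-2 its log2 fold change was -0.71 (adjusted p = 0.113).

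WRKY58 (AT3G01080), a group I gene that restrains systemic acquired resistance downstream of NPR1, behaved like these genes in direction. It had 0.930, 1.29 and 1.72 CPM in nlp2-2 shoots against 3.32, 3.83 and 3.67 CPM in Col-4 (log2 fold change -1.46 ± 0.30, adjusted p = 0.0038). In nlp2-3 it had 0.439, 1.12 and 0.788 CPM, in nlp7-1 1.31, 0.984 and 1.48 CPM and in the double mutant 1.24, 0.731 and 0.906 CPM, against 3.10, 1.97 and 3.04 CPM in Col-0. No mutant library overlapped its wild type, and the log2 fold changes against Col-0 were -1.79 (adjusted p = 0.000334) in nlp2-3, -1.10 (adjusted p = 0.0153) in nlp7-1 and -1.49 (adjusted p = 0.000451) in the double mutant. The nlp7-1 call was lost without nlp7-1 replicate 2 or Col-0 replicate 1 or 3 (adjusted p 0.00935 to 0.0785). WRKY38, WRKY51, WRKY54 and WRKY58 were thus called lower in each of the 4 comparisons. The 2 nlp2 alleles were compared with different wild types and share no library, and 5 genes (these 4 and WRKY70) were lower in both, which is 100% of the WRKY genes lower in nlp2-2 and 38.5% of those lower in nlp2-3. The matching shares over all genes are not given here, so these shares are no result particular to the family.

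The promoters of 4 of these genes are shown because the genes moved together and because the W box is the family's own binding sequence. Each window holds the 300 bases before the annotated transcript start, read 5′ to 3′ on the gene's strand from RefSeq's TAIR10.1 assembly and annotation. The deposited tables hold no coordinates. Capitals mark TTGAC, the W box core, and TGACG, the core of the as-1 element that TGA factors bind, on either strand (GTCAA and CGTCA on the other strand), and the 2 motifs can share bases, as in the CGTCAA of WRKY70. The second motif was added after the windows had been read.
WRKY70 (chr3:20910624-20910923, minus strand): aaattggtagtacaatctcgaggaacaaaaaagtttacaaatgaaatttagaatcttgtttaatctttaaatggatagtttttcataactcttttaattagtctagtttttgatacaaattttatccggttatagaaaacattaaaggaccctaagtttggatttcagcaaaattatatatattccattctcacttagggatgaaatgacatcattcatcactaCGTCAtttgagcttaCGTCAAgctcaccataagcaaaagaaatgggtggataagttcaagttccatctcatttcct
WRKY54 (chr2:17002529-17002828, minus strand): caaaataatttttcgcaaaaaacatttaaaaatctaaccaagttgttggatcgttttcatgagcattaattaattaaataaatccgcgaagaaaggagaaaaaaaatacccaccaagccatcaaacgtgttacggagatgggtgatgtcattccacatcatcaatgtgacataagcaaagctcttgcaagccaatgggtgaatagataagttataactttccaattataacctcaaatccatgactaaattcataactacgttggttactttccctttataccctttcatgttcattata
WRKY51 (chr5:25907947-25908246, plus strand): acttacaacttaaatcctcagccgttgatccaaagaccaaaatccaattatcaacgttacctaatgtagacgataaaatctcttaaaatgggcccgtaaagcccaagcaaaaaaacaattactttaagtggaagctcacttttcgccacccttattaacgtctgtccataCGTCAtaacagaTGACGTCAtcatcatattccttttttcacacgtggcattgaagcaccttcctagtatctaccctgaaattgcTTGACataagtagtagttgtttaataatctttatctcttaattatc
WRKY38 (chr5:7496991-7497290, minus strand): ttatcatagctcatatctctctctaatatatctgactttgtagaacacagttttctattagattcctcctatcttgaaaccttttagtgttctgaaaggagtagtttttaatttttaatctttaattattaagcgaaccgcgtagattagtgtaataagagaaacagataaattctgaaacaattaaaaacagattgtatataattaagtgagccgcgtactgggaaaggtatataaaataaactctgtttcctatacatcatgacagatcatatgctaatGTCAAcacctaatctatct
WRKY51 carried 1 TTGAC and 3 TGACG matches, WRKY70 carried 1 and 2, WRKY38 carried 1 and 0, and the WRKY54 window held neither string of letters. The same window of WRKY58 held neither. TTGAC was found in 60.3% of the 58 WRKY windows and in 50.4% of the windows of all 27443 protein-coding genes, and TGACG in 22.4% and 21.3%. Of the 16 WRKY genes lower in double mutant shoots, 75% carried TTGAC and 18.8% carried TGACG. A match is a description of the letters and no measure of binding.

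In group IIa, WRKY18, WRKY40 and WRKY60 are pathogen-induced relatives whose proteins bind one another. WRKY18 (AT4G31800) had 5.27, 3.499 and 5.10 CPM in nlp2-3 shoots, 12.1, 7.30 and 9.61 CPM in nlp7-1 and 10.3, 10.7 and 8.41 CPM in the double mutant, against 14.2, 9.31 and 19.9 CPM in Col-0. Only the nlp2-3 libraries lay below Col-0 without overlap, and only there was the gene called (log2 fold change -1.63 ± 0.27, adjusted p = 0.00134). Without Col-0 replicate 2 it was also called in nlp7-1 and in the double mutant. WRKY60 was lower in nlp2-3 (log2 fold change -0.997, adjusted p = 0.000212) and in the double mutant (-0.79, adjusted p = 0.000609). WRKY40 spread widely in shoots, with 3.68, 2.16 and 11.1 CPM in nlp7-1 and 3.77, 1.60 and 3.75 CPM in Col-0, and was called in no mutant by edgeR over the 6 genotypes. In the double mutant its log2 fold change was -1.62 (adjusted p = 0.13), which was called in a fit of the double mutant and Col-0 alone and in a fit that added the replicate number.

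Outside these groups the calls were fewer. Most of them belonged to the double mutant, where the share of all genes called was also the highest, so this is no result particular to these genes. WRKY33 (AT2G38470), a substrate of MPK3 and MPK6 that activates camalexin synthesis, had 10.7, 9.93 and 8.86 CPM in double mutant shoots and 22.3, 19.5 and 26.0 CPM in Col-0 (log2 fold change -1.20 ± 0.27, adjusted p = 0.00414), and its nlp7-1 libraries (16.8, 17.03 and 34.6 CPM) overlapped Col-0. WRKY2 (AT5G56270), which acts in germination and pollen development, had 12.1, 11.9 and 11.2 CPM in nlp7-1 and 8.61, 10.2 and 8.49 CPM in the double mutant, against 16.6, 14.3 and 17.2 CPM in Col-0. It fell in both without overlap, with a log2 fold change of -0.45 (adjusted p = 0.00414) in nlp7-1 and -0.81 (adjusted p = 9.55e-07) in the double mutant. In nlp2-3 it had 14.9, 16.8 and 17.5 CPM, with a log2 fold change of 0.036 (adjusted p = 0.924).

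WRKY44 (AT2G37260), also called TTG2 and needed for trichomes and seed coat, went the other way. It had 7.42, 4.99 and 6.196 CPM in nlp7-1 and 8.91, 9.29 and 8.65 CPM in the double mutant, against 4.29, 4.72 and 3.80 CPM in Col-0, and was called higher in both without overlap, with a log2 fold change of 0.54 (adjusted p = 0.0435) in nlp7-1 and 1.06 (adjusted p = 2.24e-05) in the double mutant. The nlp7-1 call was lost in 5 of the 6 fits that left out 1 library (adjusted p 0.0206 to 0.261), all but the one without nlp7-1 replicate 2, and the double mutant call was kept in all 6. WRKY48 (AT5G49520), a negative regulator of basal resistance, had a log2 fold change of 0.92 (adjusted p = 0.00731) in the double mutant, where it was higher. The further genes lower in the double mutant were WRKY6 of group IIb (log2 fold change -0.79, adjusted p = 0.00139), which acts in senescence and phosphate supply, and WRKY11 (-0.45, adjusted p = 0.000809) and WRKY15 (-0.60, adjusted p = 0.0447) of group IId. The WRKY15 call was lost in 5 of the 6 fits that left out 1 library, all but the one without Col-0 replicate 2 (adjusted p 0.0366 to 0.158). WRKY47 of group IIb was lower in nlp2-3 (log2 fold change -1.07, adjusted p = 0.000249).

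The remaining nlp2-2 call was WRKY3 (AT2G03340), a group I gene, with 27.8, 32.4 and 29.1 CPM in nlp2-2 shoots and 22.9, 24.4 and 25.6 CPM in Col-4 (log2 fold change 0.29 ± 0.081, adjusted p = 0.0444). It was lost in 5 of the 6 fits that left out 1 library, all but the one without nlp2-2 replicate 1 (adjusted p 0.0454 to 0.225). In all, 27 of the 48 tested genes were called in none of the 4 comparisons in shoots, and the matching share over all genes is not given here. They include WRKY1, with 36.6, 37.2 and 40.7 CPM in the double mutant and 37.8, 42.0 and 38.2 CPM in Col-0, WRKY20 and WRKY4 of group I and all 7 members of group IIe. Without Col-0 shoot replicate 3 the nlp7-1 count was 4, all lower, in place of 7.

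The double mutant was then set against each of its single mutants. Against nlp7-1, 5 genes were lower and 1 was higher in double mutant shoots (7.99% of all genes were called). WRKY54 was lower there (log2 fold change -1.35, adjusted p = 0.0256), as were WRKY33 (-1.20, adjusted p = 0.0142), WRKY46 (-0.88, adjusted p = 0.0283), WRKY2 (-0.37, adjusted p = 0.026) and WRKY11 (-0.33, adjusted p = 0.0331), and WRKY44 was higher (0.52, adjusted p = 0.0412). WRKY11 had 19.5, 18.4 and 18.0 CPM in the double mutant and 24.7, 19.6 and 25.9 CPM in nlp7-1, and by the library values above the groups did not overlap for any of the 6. Called genes mostly separate in this way with 3 libraries a group (18 of 18 WRKY calls in double mutant shoots against Col-0). The lack of overlap therefore adds no support beyond the call. Each of these 6 calls was lost in at least 2 of the 6 fits that left out 1 library. The count was 1 without any 1 of the 3 double mutant libraries, 2 without nlp7-1 replicate 1 and 3 without nlp7-1 replicate 3.

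Against nlp2-3, 8 genes were higher and 2 lower in double mutant shoots, where 26.6% of all genes were called. WRKY47 had 5.33, 6.58 and 5.32 CPM in the double mutant and 2.16, 2.69 and 2.63 CPM in nlp2-3 (log2 fold change 1.21 ± 0.18, adjusted p = 1.81e-05), and WRKY48 had 3.88, 3.40 and 3.38 CPM in the double mutant and 1.40, 1.30 and 1.58 CPM in nlp2-3 (log2 fold change 1.32 ± 0.27, adjusted p = 0.000568). WRKY18 had 10.3, 10.7 and 8.41 CPM in the double mutant and 5.27, 3.499 and 5.10 CPM in nlp2-3 (log2 fold change 1.08 ± 0.28, adjusted p = 0.00996). None of these 3 genes overlapped between the groups. WRKY38 (2.04, adjusted p = 0.0226), WRKY25 (0.82, adjusted p = 0.0411), WRKY8 (0.80, adjusted p = 0.0138), WRKY44 (0.57, adjusted p = 0.00996) and WRKY26 (0.55, adjusted p = 0.0273) were also higher as log2 fold changes, and none of these 5 calls was kept throughout. WRKY25 was lost in all 6 fits that left out 1 library, WRKY38 without nlp2-3 replicate 1 or 2 or double mutant replicate 2 or 3, WRKY26 without nlp2-3 replicate 1 or 3 or double mutant replicate 2 or 3, WRKY8 without replicate 2 of either group and WRKY44 without nlp2-3 replicate 3. WRKY25, which acts in heat tolerance, had 12.2, 11.9 and 9.97 CPM in the double mutant and 5.27, 6.95 and 7.15 CPM in nlp2-3, and WRKY8, a regulator of salt responses, had 3.24, 4.86 and 3.17 CPM in the double mutant and 2.36, 1.57 and 2.57 CPM in nlp2-3. WRKY2 (-0.85, adjusted p = 7.75e-07) and WRKY11 (-0.42, adjusted p = 0.00182) were lower. WRKY38 is the 1 of the 10 whose groups overlapped, and for the others the lack of overlap adds nothing to the call.

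The interaction of the 2 mutations asks whether the effect of both mutations together differs from their added single effects on the log2 scale. In shoots it was called for 4 WRKY genes, all positive, where 3.76% of all genes were called. The interaction was 3.82 (adjusted p = 0.00667) for WRKY38, 3.00 (adjusted p = 0.00814) for WRKY51, 1.64 (adjusted p = 0.0245) for WRKY18 and 1.25 (adjusted p = 0.00387) for WRKY47. For each of the 4 the double mutant level was higher than the sum of both single mutant effects gives. WRKY51, for example, fell by 4.26 in nlp2-3, by 2.23 in nlp7-1 and by 3.49 in the double mutant. In nlp2-3 shoots 3 counts are 0.119 to 0.158 CPM, and the WRKY38 and WRKY51 levels there reached down to that range or below. The summed effects would set both genes at or below such levels in the double mutant. A positive interaction was therefore largely fixed beforehand for them and says little about how the mutations combine. WRKY47 had 5.33, 6.58 and 5.32 CPM in the double mutant, 2.16, 2.69 and 2.63 CPM in nlp2-3, 4.90, 4.92 and 5.39 CPM in nlp7-1 and 4.60, 5.74 and 5.32 CPM in Col-0, so it was low in nlp2-3 alone among these 4. The WRKY18 interaction was lost without Col-0 replicate 1, nlp2-3 replicate 2, nlp7-1 replicate 3 or double mutant replicate 1 or 2 (adjusted p 0.00179 to 0.0673). In roots the interaction was called for 0 of 56 genes by edgeR and 0 by DESeq2, with 3 at an unadjusted p under 0.05 by edgeR and 0.239% of all genes called.

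Genes that act with WRKY factors were taken from lists of named loci. These lists were chosen with earlier results of these data known, so their counts are description and no independent support. Each count is to be read beside the share of all genes called in the same comparison, which is given with the WRKY counts. That share was highest in the double mutant in both tissues. Of 16 genes of salicylic acid synthesis and response, 10 were lower in nlp2-2 shoots, 16 in nlp2-3, 10 in nlp7-1 and 15 in the double mutant, and none was higher. PR1, a marker of the salicylic acid response, had 2.51, 5.28 and 1.62 CPM in nlp2-2 shoots against 40.2, 62.8 and 51.7 CPM in Col-4, and 0.719, 0.583 and 1.94 CPM in nlp2-3, 8.74, 8.29 and 3.01 CPM in nlp7-1 and 1.92, 3.53 and 7.83 CPM in the double mutant against 44.3, 44.1 and 77.8 CPM in Col-0. The log2 fold changes were -4.05 (adjusted p = 0.00107), -5.73 (adjusted p = 6.31e-05), -3.01 (adjusted p = 0.0015) and -3.63 (adjusted p = 0.000122) in that order. Leaving out 1 library kept 5 to 8 of the 10 nlp2-2 calls, with 5 without nlp2-2 replicate 1 or Col-4 replicate 3, and at least 14, 9 and 12 of the calls in nlp2-3, nlp7-1 and the double mutant. ICS1, which makes salicylic acid, had a log2 fold change of -0.48 (adjusted p = 0.0315) in nlp2-2, -0.89 (adjusted p = 4.39e-05) in nlp2-3, -0.27 (adjusted p = 0.159) in nlp7-1 and -0.70 (adjusted p = 0.000145) in the double mutant. NIMIN1, which binds NPR1, had -1.89 (adjusted p = 0.018), -3.05 (adjusted p = 0.000355), -1.96 (adjusted p = 0.00665) and -2.55 (adjusted p = 0.000301). In nlp2-2 the ICS1 call was lost in 4 of the 6 fits that left out 1 library (adjusted p 0.0205 to 0.174), and so was the NIMIN1 call (adjusted p 0.0133 to 0.118).

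VQ proteins bind WRKY factors. Of the 6 VQ genes tested in shoots, 2 were lower in nlp2-2, 3 in nlp2-3, 2 in nlp7-1 and 2 in the double mutant, and 1 was higher in the double mutant. SIB1, a partner of WRKY33, was lower in each, with log2 fold changes of -0.98 (adjusted p = 0.0381) in nlp2-2, -1.84 (adjusted p = 0.000197) in nlp2-3, -1.06 (adjusted p = 0.00934) in nlp7-1 and -1.72 (adjusted p = 8.77e-05) in the double mutant. The nlp2-2 call of SIB1 was lost in 5 of the 6 fits that left out 1 library, all but the one without Col-4 replicate 1 (adjusted p 0.0398 to 0.159), and neither VQ call of nlp2-2 was kept without nlp2-2 replicate 1 or Col-4 replicate 3. Of the 2 VQ calls in nlp7-1 only SIB1 was kept in every such fit. Of 10 genes of the MAP kinase cascade that phosphorylates group I WRKY proteins, 4 were lower in nlp2-2, 5 in nlp2-3, 2 in nlp7-1 and 6 in the double mutant, and none was higher. MKK1, a MAP kinase kinase of that cascade, was lower in each, with log2 fold changes of -0.66 (adjusted p = 0.000461), -0.88 (adjusted p = 3.13e-06), -0.67 (adjusted p = 0.000175) and -1.24 (adjusted p = 5.34e-09) in the same order. In nlp2-2 MKK1 was the 1 call of 4 kept in every fit that left out 1 library, while MKK2, MKK4 and MPK4 were lost in 3, 5 and 5 of the 6 (highest adjusted p 0.174, 0.248 and 0.319), and 1 of the 4 was left without nlp2-2 replicate 1 or Col-4 replicate 3. Without Col-0 replicate 3 the nlp7-1 count was 1, since MKK2 was lost.

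Of 6 camalexin genes, 3 were lower and 0 higher in nlp2-2 shoots, 2 were lower and 0 higher in nlp2-3, and 1 was lower and 2 were higher in nlp7-1 and in the double mutant alike. PAD3, the last enzyme of the pathway and a target of WRKY33, was lower in each, with log2 fold changes of -1.56 (adjusted p = 0.0107) in nlp2-2, -3.44 (adjusted p = 7.5e-06) in nlp2-3, -1.93 (adjusted p = 0.000778) in nlp7-1 and -2.46 (adjusted p = 2.38e-05) in the double mutant. CYP79B2, at the head of the pathway and shared with indole glucosinolates, was higher in nlp7-1 (1.23, adjusted p = 9.86e-07) and in the double mutant (1.61, adjusted p = 4.22e-09). CYP79B3, its close relative, was higher in the same 2 mutants (0.89, adjusted p = 0.00032, and 0.92, adjusted p = 4.25e-05) and lower in nlp2-2 (-0.56, adjusted p = 0.0247). CYP71A13, a later step of the pathway, was lower in nlp2-2 (-3.39, adjusted p = 0.0343) and nlp2-3 (-3.20, adjusted p = 0.0369). In nlp2-2 the calls of CYP79B3 and CYP71A13 were each lost in 5 of the 6 fits that left out 1 library and that of PAD3 in 3, and none of the 3 was left without nlp2-2 replicate 1 or Col-4 replicate 3. The nlp2-3 call of CYP71A13 was lost in 5 such fits, all but the one without Col-0 replicate 1. Of 6 pattern-response genes, 1 was lower and 1 higher in nlp2-2 shoots, 2 were lower in nlp2-3 and 1 in nlp7-1, and 2 were lower and 1 was higher in the double mutant. FRK1, a receptor kinase that WRKY22 and WRKY29 act on, was lower in each mutant, with log2 fold changes of -3.17 (adjusted p = 0.000726), -3.03 (adjusted p = 0.000438), -2.70 (adjusted p = 0.000944) and -2.40 (adjusted p = 0.000551) in the same order. CYP81F2, an enzyme of indole glucosinolate metabolism, was higher in nlp2-2 (1.29, adjusted p = 0.00372), a call lost without nlp2-2 replicate 1. BIK1, a kinase that acts with the flagellin receptor, was higher in the double mutant (0.50, adjusted p = 0.0103), a call lost without double mutant replicate 3. NHL10 in nlp2-3 and FLS2, the flagellin receptor, in the double mutant were the other lower calls. WRKY22 and WRKY29 themselves had log2 fold changes of 0.027 (adjusted p = 0.956) and 1.11 (adjusted p = 0.0518) in the double mutant, and all 3 limma fits on FPKM called WRKY29.

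Of 10 senescence genes tested in shoots, 0 were lower in nlp2-2, 2 in nlp2-3, 2 in nlp7-1 and 1 in the double mutant, and 2 were higher in the double mutant. The double mutant count lies near the share of all genes called there and is no result about the list. SAG13 was lower in nlp2-3 (log2 fold change -3.15, adjusted p = 0.000141) and nlp7-1 (-1.66, adjusted p = 0.00732). SAG12, a marker of late senescence, had 0.170, 2.15 and 1.73 CPM in double mutant shoots and 0 counts in every Col-0 shoot library.

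Roots gave fewer WRKY calls in the single mutants. In nlp2-2 roots 1 gene was higher and 3 lower than in Col-4 (7.14% of the 56 tested, where 7.12% of all genes were called). In nlp2-3 roots 2 were higher and 1 lower than in Col-0 (5.36%, against 6.84% of all genes), and in nlp7-1 roots 1 was higher and 1 lower (3.57%, against 7.94%). In double mutant roots 6 were higher and 10 lower (28.6%, against 25.2%). These shares lie near those of all genes. No group III gene was called in the roots of a single mutant by edgeR, while DESeq2 called WRKY62 in nlp2-2 and nlp2-3 roots.

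WRKY56 (AT1G64000) was the 1 member higher in roots in each of the 4 comparisons. It had 6.29, 4.88 and 7.02 CPM in nlp2-2 roots against 3.06, 4.11 and 4.11 CPM in Col-4 (log2 fold change 0.68 ± 0.15, adjusted p = 0.00762). It had 7.11, 6.65 and 7.27 CPM in nlp2-3, 6.93, 6.54 and 6.90 CPM in nlp7-1 and 8.59, 7.88 and 9.21 CPM in the double mutant, against 4.27, 3.89 and 3.54 CPM in Col-0. Every mutant library lay above its wild type, and the log2 fold changes against Col-0 were 0.84 (adjusted p = 0.00134) in nlp2-3, 0.80 (adjusted p = 0.00202) in nlp7-1 and 1.13 (adjusted p = 1.12e-05) in the double mutant. Without Col-4 replicate 1 the nlp2-2 value was not called (adjusted p 0.00353 to 0.0519).

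WRKY23 (AT2G47260), an auxin-responsive regulator of root and embryo patterning, was lower in roots in each comparison. It had 25.3, 21.7 and 25.5 CPM in nlp2-2 roots against 27.8, 32.0 and 29.3 CPM in Col-4 (log2 fold change -0.30 ± 0.09, adjusted p = 0.0497), and 22.7, 24.6 and 25.3 CPM in nlp2-3, 24.5, 24.7 and 21.0 CPM in nlp7-1 and 22.1, 24.04 and 20.6 CPM in the double mutant against 31.5, 30.3 and 28.1 CPM in Col-0. The groups did not overlap, and the log2 fold changes against Col-0 were -0.31 (adjusted p = 0.0421), -0.36 (adjusted p = 0.0163) and -0.43 (adjusted p = 0.00142) in that order. The double mutant call was kept in every fit that left out 1 library. The nlp2-2 call was lost in all 6 such fits (adjusted p 0.0583 to 0.25), the nlp2-3 call in 5, all but the one without Col-0 replicate 3 (adjusted p 0.0491 to 0.182), and the nlp7-1 call without nlp7-1 replicate 3 or Col-0 replicate 1 (adjusted p 0.0195 to 0.101).

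Among the calmodulin-binding group IId, WRKY21 (AT2G30590) had 39.2, 37.0 and 41.7 CPM in nlp2-2 roots and 53.9, 54.2 and 53.0 CPM in Col-4 (log2 fold change -0.45 ± 0.07, adjusted p = 0.000377), and 40.7, 40.7 and 42.2 CPM in the double mutant and 50.8, 50.5 and 51.4 CPM in Col-0 (log2 fold change -0.31 ± 0.07, adjusted p = 0.00307). Both mutants lay below their wild types without overlap. WRKY39 was lower in the double mutant (log2 fold change -0.34, adjusted p = 0.000383), and so was WRKY15 (-0.28, adjusted p = 0.0422). WRKY11 and WRKY17, which restrain basal resistance to bacteria, were higher in double mutant roots. WRKY11 had 172, 173 and 171 CPM in the double mutant and 134, 109 and 145 CPM in Col-0 (log2 fold change 0.41, adjusted p = 0.00402), and the WRKY17 log2 fold change was 0.26 (adjusted p = 0.0136). Thus 5 of the 6 members of group IId were called there, 3 lower and 2 higher. The WRKY17 call was lost without Col-0 replicate 2 or double mutant replicate 1 (adjusted p 0.0103 to 0.0789), and the WRKY15 call in 5 of 6 such fits, all but the one without Col-0 replicate 2 (adjusted p 0.0161 to 0.205). WRKY11 fell in double mutant shoots and rose in double mutant roots.

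**Figure D3:**
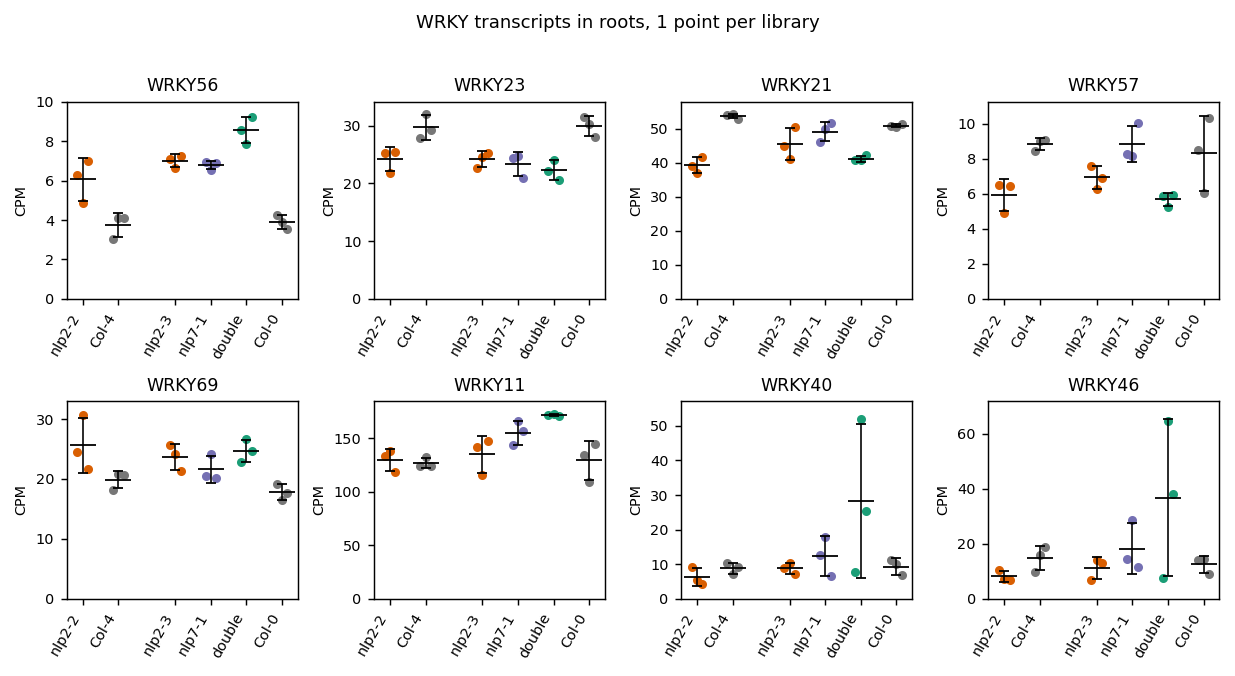
Root levels (CPM, linear axes from 0) of 8 WRKY genes in nlp2-2 and Col-4 and in nlp2-3, nlp7-1, the double mutant and Col-0, with 1 point per library, a dash at the mean and bars of 1 SD (n = 3). WRKY56 lies above and WRKY23 below wild type in all 4 mutants, and WRKY40 and WRKY46 spread over the 3 double mutant libraries.

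WRKY57 (AT1G69310), a gene linked to drought tolerance, had 6.49, 4.88 and 6.42 CPM in nlp2-2 roots and 8.41, 8.999 and 9.03 CPM in Col-4 (log2 fold change -0.57 ± 0.16, adjusted p = 0.0385), and 5.88, 5.25 and 5.93 CPM in the double mutant and 8.50, 6.05 and 10.3 CPM in Col-0 (log2 fold change -0.55 ± 0.16, adjusted p = 0.0186). The nlp2-2 call was lost in each of the 6 fits that left out 1 library (adjusted p 0.0525 to 0.205) and the double mutant call without double mutant replicate 2 or Col-0 replicate 3 (adjusted p 0.0015 to 0.135). WRKY69 of group IIe had 25.6, 24.1 and 21.3 CPM in nlp2-3 roots and 22.9, 26.6 and 24.6 CPM in the double mutant, against 19.2, 16.5 and 17.6 CPM in Col-0. It was higher in both without overlap, with a log2 fold change of 0.41 (adjusted p = 0.0407) in nlp2-3 and 0.47 (adjusted p = 0.00548) in the double mutant. The nlp2-3 call was lost without nlp2-3 replicate 1 or 2 or Col-0 replicate 2 or 3 (adjusted p 0.037 to 0.161). The nlp2-2 count was 1 without Col-4 replicate 1, and 2 without nlp2-2 replicate 1 or without either other Col-4 library, and without nlp2-3 replicate 1 or 2 the nlp2-3 count was 1. The nlp7-1 count was 1 without Col-0 replicate 1.

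In double mutant roots further members of groups IIa, IIc and III were lower. WRKY45 (AT3G01970), which activates phosphate uptake, had 2.24, 1.95 and 1.41 CPM in the double mutant and 3.32, 3.03 and 6.99 CPM in Col-0 (log2 fold change -1.24 ± 0.31, adjusted p = 0.00552). WRKY28 (AT4G18170), an activator of ICS1, had 1.02, 2.15 and 2.14 CPM in the double mutant and 3.18, 2.92 and 4.74 CPM in Col-0 (log2 fold change -1.03 ± 0.34, adjusted p = 0.0313). WRKY60 had 8.21, 7.16 and 9.53 CPM in the double mutant and 13.8, 10.3 and 15.0 CPM in Col-0 (log2 fold change -0.65 ± 0.15, adjusted p = 0.00358). These 3 genes did not overlap between the double mutant and Col-0. WRKY62 had 4.15, 5.85 and 2.83 CPM in the double mutant and 10.04, 6.22 and 8.03 CPM in Col-0 (log2 fold change -0.92 ± 0.31, adjusted p = 0.0368), and WRKY63, which acts in abscisic acid responses, had 0, 0.159 and 0.182 CPM in the double mutant and 1.36, 0.486 and 0.499 CPM in Col-0 (log2 fold change -2.75 ± 0.73, adjusted p = 0.00864). In double mutant roots 3 counts are 0.121 to 0.139 CPM, so WRKY63 stood near or below that level. Over the alternatives the WRKY63 log2 fold change ran from -3.20 to -0.63. Without Col-0 replicate 3, the highest of its group for WRKY45 and WRKY28, neither was called (adjusted p 0.00222 to 0.0656 and adjusted p 0.0304 to 0.147), and the count of double mutant calls was 9 in place of 16. WRKY28 was also lost without double mutant replicate 1, WRKY63 without Col-0 replicate 1 (adjusted p 0.00789 to 0.0734), and WRKY62 without double mutant replicate 1 or 3 or Col-0 replicate 1 or 3 (adjusted p 0.017 to 0.138).

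WRKY40 (AT1G80840) and its stress-inducible relatives differed most between replicates. WRKY40 had 7.74, 52.0 and 25.3 CPM in the 3 double mutant root libraries and 11.3, 9.89 and 6.74 CPM in Col-0 (log2 fold change 1.61 ± 0.55, adjusted p = 0.0484). Replicates 2 and 3 lay above Col-0 and replicate 1 lay inside its range, and the call was lost in 5 of the 6 fits that left out 1 library, all but the one without double mutant replicate 1 (adjusted p 0.00237 to 0.27). WRKY48 had 16.5, 34.7 and 28.1 CPM in the double mutant and 19.1, 14.6 and 18.4 CPM in Col-0 (log2 fold change 0.61 ± 0.19, adjusted p = 0.0303), overlapped in the same way and was lost without double mutant replicate 2 or 3 or Col-0 replicate 2 or 3 (adjusted p 0.00016 to 0.187). WRKY46 had 7.36, 64.6 and 38.1 CPM in the double mutant and 13.95, 14.4 and 9.03 CPM in Col-0 (log2 fold change 1.56, adjusted p = 0.0808), and WRKY33 had 41.0, 127 and 73.8 CPM in the double mutant and 70.0, 48.8 and 71.3 CPM in Col-0 (log2 fold change 0.35, adjusted p = 0.455). Neither was called by edgeR, DESeq2 called WRKY46, and without double mutant replicate 1 both were called (adjusted p 0.00373 to 0.363 for WRKY46 and 0.0466 to 0.75 for WRKY33). WRKY46, WRKY40, WRKY53, WRKY18, WRKY38, WRKY70 and WRKY33 had the 7 largest spreads within groups of the family in roots, from 0.765 for WRKY46 to 0.382 for WRKY33 as a pooled SD on the log2 scale, where the median of all genes was 0.136. In the same libraries the summed level of 10 rapid stress genes (ZAT10, TCH4, CBF1 and others) was 146, 653 and 493 CPM in the double mutant and 124, 189.6 and 111 CPM in Col-0. Of these 10, 5 were higher in double mutant roots (CBF1, ZAT10, TCH4, TCH2 and ERF1A) and none was lower. None of the 5 calls was kept in every fit that left out 1 library, and 0 of them were left without double mutant replicate 2 or Col-0 replicate 3. Their part in the WRKY40 result was not tested.

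Phosphate genes were listed because WRKY6, WRKY42 and WRKY45 act in phosphate supply, and not each gene of the list was taken as their target. PHO1, a phosphate exporter that WRKY6 and WRKY42 repress, had 398, 424 and 439.6 CPM in double mutant roots, 434, 501 and 482 CPM in nlp7-1 and 801, 659 and 773 CPM in Col-0, with log2 fold changes of -0.82 (adjusted p = 3.43e-07) and -0.66 (adjusted p = 2.88e-05). All 5 phosphate genes were lower in nlp7-1 and in double mutant roots, 1 in nlp2-3 and 1 in nlp2-2. PHO1, PHT1;2 and PHT1;3 were kept in every fit that left out 1 library in nlp7-1 and the double mutant, PHT1;1 and PHT1;4 were not, and the count was 3 without Col-0 replicate 3. The nlp2-3 call was PHT1;3, which was lost in all 6 such fits. WRKY6 and WRKY42 had log2 fold changes of -0.10 (adjusted p = 0.607) and 0.46 (adjusted p = 0.496) in double mutant roots, and neither was called.

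Against its single mutants, the double mutant had few WRKY calls in roots. Few of all genes were called there either, so the low counts are no result particular to the family. Against nlp7-1, 3 were lower and 0 higher (6.51% of all genes were called): WRKY63 (-2.87, adjusted p = 0.0196), WRKY57 (-0.63, adjusted p = 0.0233) and WRKY21 (-0.26, adjusted p = 0.0328), as log2 fold changes. WRKY57 had 5.88, 5.25 and 5.93 CPM in the double mutant and 8.28, 8.16 and 10.01 CPM in nlp7-1, and WRKY21 had 40.7, 40.7 and 42.2 CPM in the double mutant and 46.1, 49.8 and 51.6 CPM in nlp7-1, in both cases without overlap. Against nlp2-3, WRKY11 (0.35, adjusted p = 0.0356) and WRKY17 (0.28, adjusted p = 0.0247) were higher and none was lower, where 6.47% of all genes were called. WRKY11 had 172, 173 and 171 CPM in the double mutant and 142, 116 and 148 CPM in nlp2-3, and WRKY17 had 109, 103 and 103 CPM in the double mutant and 88.5, 75.6 and 94.4 CPM in nlp2-3. Each of these 5 calls was lost in at least 2 of the 6 fits that left out 1 library, and WRKY63 had at most 4 counts in a double mutant root library. The count against nlp2-3 ran from 0, without nlp2-3 replicate 1 or double mutant replicate 3, and 1, without double mutant replicate 2, to 6 without double mutant replicate 1. The count against nlp7-1 was 1 without nlp7-1 replicate 3.

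The 2 wild types differed in no WRKY gene by the test. Between Col-4 and Col-0 edgeR called 0 of 56 in roots and 0 of 48 in shoots, DESeq2 called 0 in both, and 1 and 6 genes had an unadjusted p under 0.05 by edgeR (0.0391% and 0.794% of all genes were called). NLP2 itself was called lower by edgeR in Col-4 shoots than in Col-0 shoots (log2 fold change -0.37, adjusted p = 0.0032). With Col-0 in place of Col-4, nlp2-2 shoots had 8 WRKY genes lower and 0 higher (7.11% of all genes were called) and nlp2-2 roots 3 lower and 2 higher (8.6%). The 5 genes lower against Col-4 in shoots were lower against Col-0 as well, and WRKY30, WRKY50 and WRKY60 joined them.

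The family was divided between the tissues in wild type. Levels are compared between genes as FPKM, which scales counts to gene length and library size. In Col-0 shoots WRKY70 led the family, and in Col-0 roots WRKY65 did. WRKY70 had 73.9, 65.7 and 95.7 FPKM in the 3 shoot libraries and 8.88, 7.68 and 8.29 FPKM in the 3 root libraries (log2 fold change 3.95 ± 0.33, adjusted p = 4.12e-11). WRKY65 of group IIe had 0.358, 0.421 and 0.744 FPKM in shoots and 92.3, 85.1 and 92.5 FPKM in roots (log2 fold change -6.82 ± 0.21, adjusted p = 1.26e-23). The next in shoots were WRKY54, with 23.5 ± 4.14 FPKM in Col-0 shoots and 26.3 ± 2.64 FPKM in Col-0 roots, and WRKY1, with 19.5 ± 1.09 FPKM in Col-0 shoots and 26.8 ± 0.951 FPKM in Col-0 roots (SD, n = 3). The next in roots were WRKY11, with 17.5 ± 2.31 FPKM in Col-0 shoots and 88.0 ± 11.7 FPKM in Col-0 roots, and WRKY17, with 8.58 ± 0.952 FPKM in Col-0 shoots and 56.1 ± 5.30 FPKM in Col-0 roots. WRKY65 and WRKY11 did not differ beyond their spread in roots, nor did WRKY54 and WRKY1 in shoots.

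Of the 57 genes tested, 16 were called higher and 35 lower in Col-0 shoots than in Col-0 roots, where 78.4% of all genes were called. The direction of small differences depends on the scaling, because the TMM factors set shoot libraries 0.735 below root libraries on the log2 scale, and 6 called genes (WRKY1, WRKY2, WRKY20, WRKY44, WRKY54 and WRKY60) turn round when libraries are scaled to their totals alone. Of these 6, WRKY2, WRKY54 and WRKY60 were not called without Col-0 root replicate 2. At least 2-fold on both scales, 25 genes were lower in shoots and 5 were higher (WRKY8, WRKY12, WRKY30, WRKY38 and WRKY70). All 7 members of group IIe and 6 of 7 of group IIb were among the 25, with 4 of 6 of group IId, 7 of 14 of group IIc, 1 of 9 tested of group III and none of groups I and IIa. The matching shares over all genes, for each direction and at 2-fold, are not given here. These counts are therefore no result particular to the family or its groups. Of group IIb, WRKY9, WRKY31, WRKY61 and WRKY72 had passed the filter on low counts in roots alone. So had WRKY43, WRKY56, WRKY71 and WRKY75 of group IIc, and WRKY12 had passed it in shoots alone. The direction of their difference was fixed by how they entered the fit and is no test of their group. WRKY72, which acts in basal defence, had 0.0183, 0.0430 and 0.0579 FPKM in Col-0 shoots and 35.6, 25.9 and 36.4 FPKM in Col-0 roots. WRKY61 had 0.0185, 0.0434 and 0 FPKM in shoots and 8.73, 5.33 and 8.55 FPKM in roots, and WRKY9 had 0.132, 0.0619 and 0.208 FPKM in shoots and 24.7, 23.7 and 26.3 FPKM in roots. These 3 genes and WRKY31 (0, 0.0204 and 0.0548 FPKM in shoots and 1.74, 1.29 and 1.32 FPKM in roots) are group IIb genes found almost wholly in roots. WRKY29 of group IIe had 0.475, 0.353 and 0.316 FPKM in shoots and 17.9, 15.0 and 17.6 FPKM in roots, and WRKY43 of group IIc had 0.112, 0.0658 and 0.0886 FPKM in shoots and 6.61, 2.43 and 3.56 FPKM in roots. WRKY56, whose root level changed in the mutants, had 4.68, 4.38 and 3.93 FPKM in Col-0 roots and 0 counts in the 3 Col-0 shoot libraries. The genes lower in mutant shoots were therefore not all shoot genes: WRKY51 had 5.66 ± 2.06 FPKM in Col-0 shoots and 17.9 ± 1.80 FPKM in Col-0 roots, WRKY62 had 1.06 ± 0.567 FPKM in Col-0 shoots and 7.34 ± 1.64 FPKM in Col-0 roots and WRKY54 stood at similar FPKM in both.

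**Figure D4:**
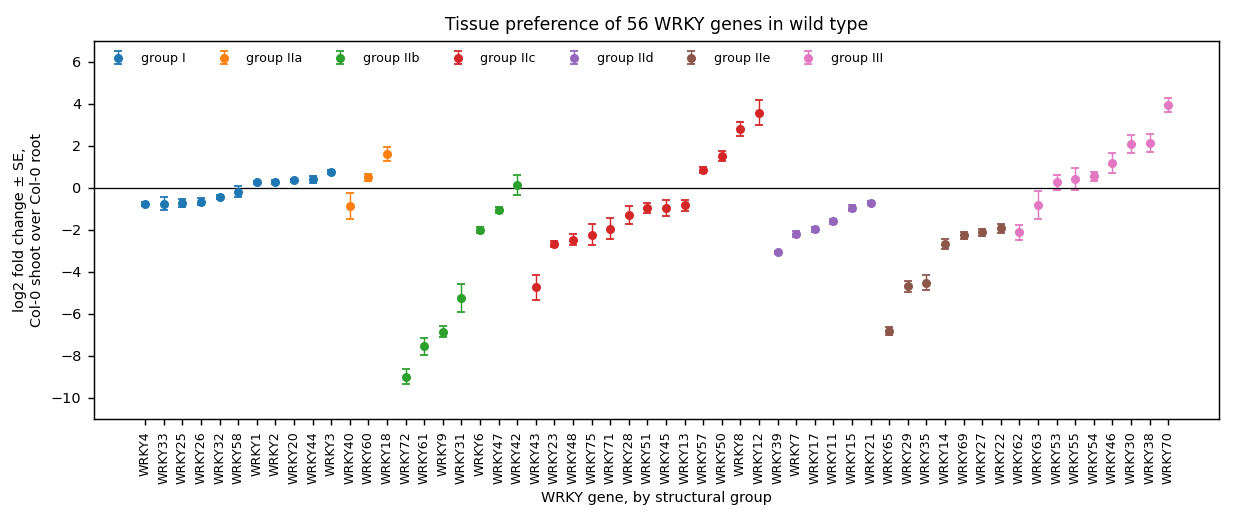
Log2 fold change of Col-0 shoots over Col-0 roots (points, with bars of 1 SE) for 56 WRKY genes ordered by structural group, TMM-scaled, without WRKY56, which had 0 counts in Col-0 shoots. Groups IIb and IIe lie below 0 except WRKY42, and WRKY70 and WRKY12 stand highest.

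The same mutations had different effects on part of the family in shoots and in roots. The difference of the shoot and the root effect was tested in a fit of all 36 libraries. It was called for 4 WRKY genes in nlp2-2 (3 negative and 1 positive, where 2.64% of all genes were called), 10 in nlp2-3 (all negative, 4.23%), 4 in nlp7-1 (all negative, 6.39%) and 23 in the double mutant (18 negative and 5 positive, 23.2%). Of these calls 1, 6, 3 and 11 were kept in each of the 12 fits that left out 1 library. The nlp7-1 count, out of 57 WRKY genes tested, lay near the share of all genes called. Without Col-0 root replicate 2, nlp2-3 lost WRKY25, WRKY60, WRKY62 and WRKY70, nlp7-1 lost WRKY2 and the double mutant lost WRKY7, WRKY14, WRKY17, WRKY18, WRKY30 and WRKY58. WRKY51 and WRKY54 were negative in all 4, that is, their shoot log2 fold change was lower than their root one. For WRKY54 the difference was -2.02 (adjusted p = 0.000208) in nlp2-2, -2.57 (adjusted p = 4.3e-06) in nlp2-3, -1.23 (adjusted p = 0.0112) in nlp7-1 and -2.53 (adjusted p = 1.11e-06) in the double mutant. In roots WRKY54 had 27.2, 37.1 and 30.0 CPM in the double mutant and 37.2, 34.8 and 42.6 CPM in Col-0, with a root log2 fold change of -0.28 (adjusted p = 0.0734). The root value was called without Col-0 replicate 2 or double mutant replicate 2 (adjusted p 0.0112 to 0.286 over the fits that left out 1 library).

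The root values of the other genes with the largest differences stood as follows. WRKY51 had 17.8, 14.9 and 15.4 CPM in nlp2-2 roots and 14.8, 16.3 and 15.1 CPM in Col-4 roots, and 13.8, 13.9 and 15.6 CPM in nlp2-3, 13.7, 20.8 and 12.7 CPM in nlp7-1 and 10.2, 21.0 and 13.9 CPM in the double mutant against 16.7, 15.7 and 19.2 CPM in Col-0. WRKY38 had 2.60, 1.45 and 1.96 CPM in nlp2-3 roots, 4.86, 5.05 and 1.53 CPM in nlp7-1 and 3.00, 5.45 and 3.65 CPM in the double mutant, against 2.59, 2.81 and 1.60 CPM in Col-0. Neither gene was called in roots, except WRKY51 in the double mutant without double mutant replicate 2 (adjusted p 0.0481 to 0.963). The nlp2-3 values of WRKY51 lay just below Col-0 (root log2 fold change -0.25, adjusted p = 0.571) and the double mutant values of WRKY38 just above it (0.79, adjusted p = 0.185), and the other groups overlapped their wild types. The WRKY51 difference was -1.67 (adjusted p = 0.0159; lost without nlp2-2 shoot replicate 1 or Col-4 shoot replicate 3) in nlp2-2, -4.02 (adjusted p = 4.98e-06) in nlp2-3, -2.12 (adjusted p = 0.00113) in nlp7-1 and -3.29 (adjusted p = 3.71e-06) in the double mutant, and that of WRKY38 was -4.04 (adjusted p = 0.000978) in nlp2-3, -2.51 (adjusted p = 0.011) in nlp7-1 and -2.99 (adjusted p = 0.000661) in the double mutant.

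WRKY58 had 5.16, 5.34 and 4.16 CPM in nlp2-2 roots and 4.87, 6.17 and 2.77 CPM in Col-4 roots, and 6.37, 4.60 and 5.83 CPM in nlp2-3 roots and 5.64, 4.59 and 5.24 CPM in Col-0 roots. WRKY70 had 6.91, 10.5 and 10.8 CPM in nlp2-3 roots and 13.4, 11.3 and 12.4 CPM in Col-0 roots. WRKY30 had 0.882 to 1.33 CPM in the 3 nlp2-3 root libraries, 0.212, 1.47 and 1.37 CPM in the double mutant and 0.954, 0.703 and 1.25 CPM in Col-0. The nlp2-3 values of WRKY70 lay below Col-0 without overlap (root log2 fold change -0.39, adjusted p = 0.613). None of these 3 genes was called in roots of any mutant, and the nlp2-3 differences were -1.94 (adjusted p = 0.00292) for WRKY58, -1.79 (adjusted p = 0.0243) for WRKY70 and -3.02 (adjusted p = 0.00657) for WRKY30. That of WRKY70 was lost in 6 of the 12 fits that left out 1 library (adjusted p 0.00702 to 0.0891). WRKY45, lower in double mutant roots, had 1.15, 1.68 and 2.60 CPM in double mutant shoots and 1.60, 0.615 and 1.96 CPM in Col-0 shoots, with no call there, and its difference was 1.64 (adjusted p = 0.0242), lost in 4 of the 12 (adjusted p 0.0139 to 0.125).

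**Figure D5:**
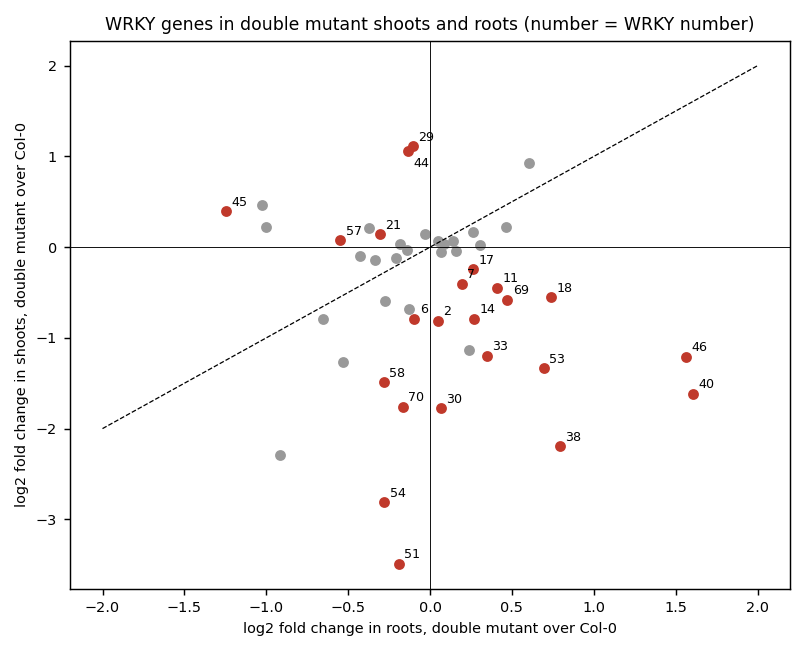
Log2 fold change of 47 WRKY genes tested in both tissues, double mutant over Col-0, in shoots (vertical) against roots (horizontal). The 23 red points with WRKY numbers are genes whose shoot and root effects differ at adjusted p under 0.05, the dashed line marks equal effects, and most red points lie below it.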

How the data were processed

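RNA was measured by RNA-seq in 18 root and 18 shoot libraries, 3 of each of 6 genotypes. HISAT2 (an aligner), HTSeq (a read counter) and the TAIR10 build are named in the submitters' processing notes. Versions, the gene models and the use of strand are not given in the sources used here, so reads of overlapping antisense genes cannot be told apart. The authors deposited count tables (whole reads per gene) and FPKM tables, and the deposited FPKM values were counts divided by the library's total and by 1 length per gene, checked on 11125 genes.

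Counts were tested with edgeR 4.0.16 (R 4.3.3; TMM scaling, filterByExpr with a minimum count of 10 and a minimum total of 15, robust quasi-likelihood fit) in 1 fit per tissue over its 18 libraries (12 residual degrees of freedom). This tested 20486 genes in roots and 19137 in shoots. One fit of all 36 libraries (24 residual degrees of freedom) tested 21554 genes for tissue contrasts. P-values were adjusted over all genes tested by the Benjamini-Hochberg method and called under 0.05. CPM values use TMM-scaled totals within a tissue. The ± after a log2 fold change is its standard error. No sample was dropped or imputed. Library totals of 18150510 to 31657474 counts leave genes near 1 CPM with few counts.

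Alternatives were DESeq2 1.42.0, RLE scaling, limma 3.58.1 on log2(FPKM + 1) with and without a filter on low values and on log2(FPKM + 0.1), fits of the compared groups alone, a replicate block, no filter on low counts and each library left out. The scripts were tested on simulated data. In each comparison the values of every library were given for up to 8 called genes with the largest absolute log2 fold change and at least 1 CPM on average, and other genes were named by list. The members and lists were chosen with earlier results of these data known. Promoter windows of 300 bases came from TAIR10.1 and its own annotation.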

Additional observations from a re-analysis of the deposited data

Results flagged for a closer look

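The effect of a mutation differed between shoots and roots by a test of the difference itself for the WRKY genes below, at an adjusted p under 0.05 by edgeR's quasi-likelihood test. Each value is the shoot log2 fold change minus the root one. In nlp2-2 the difference was negative for WRKY54 (-2.02), WRKY51 (-1.67) and WRKY58 (-1.56) and positive for WRKY21 (0.41), the gene that fell in nlp2-2 roots and was not called in nlp2-2 shoots. The WRKY54 call was kept in each of the 12 fits that left out 1 library. That of WRKY21 was lost in 9 of them (adjusted p 0.0183 to 0.144), that of WRKY58 in 3 (adjusted p 0.00809 to 0.0785) and that of WRKY51 in 2 (adjusted p 0.00822 to 0.0709). In nlp2-3 it was negative for WRKY38 (-4.04), WRKY51 (-4.02), WRKY30 (-3.02), WRKY62 (-2.91), WRKY54 (-2.57), WRKY58 (-1.94), WRKY70 (-1.79), WRKY47 (-1.21), WRKY25 (-1.06) and WRKY60 (-0.84), and the calls of WRKY25, WRKY60, WRKY62 and WRKY70 were lost in at least 1 such fit. In nlp7-1 it was negative for WRKY38 (-2.51), WRKY51 (-2.12), WRKY54 (-1.23) and WRKY2 (-0.57), of which WRKY2 was lost without Col-0 root replicate 2 (-0.44, adjusted p = 0.0537, within 0.00491 to 0.0537 over the 12 fits). Group III genes, WRKY51 and WRKY58 made up most of these, and their fold changes stood lower in shoots than in roots.

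In the double mutant the difference was called for 23 genes. It was negative for group III, with WRKY38 (-2.995), WRKY46 (-2.77), WRKY54 (-2.53), WRKY53 (-2.03), WRKY30 (-1.84) and WRKY70 (-1.59). Negative values of other groups were those of WRKY51 (-3.29), WRKY40 (-3.23), WRKY33 (-1.55), WRKY18 (-1.29), WRKY58 (-1.21), WRKY14 (-1.06), WRKY69 (-1.04), WRKY2 (-0.86), WRKY11 (-0.85), WRKY6 (-0.69), WRKY7 (-0.60) and WRKY17 (-0.51). It was positive for WRKY45 (1.64), WRKY29 (1.20), WRKY44 (1.20), WRKY57 (0.62) and WRKY21 (0.44). Of the 23 calls 11 were kept in every such fit (WRKY2, WRKY11, WRKY21, WRKY33, WRKY38, WRKY44, WRKY46, WRKY51, WRKY53, WRKY54 and WRKY69). For WRKY40, WRKY46 and WRKY33 the double mutant root values of replicates 2 and 3 lay above those of replicate 1, as did the rapid stress genes, and the part of those libraries in the difference was not tested.

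The double mutant also departed from the sum of the nlp2-3 and nlp7-1 effects in shoots, by the test of the interaction, for WRKY38 (3.82), WRKY51 (3.00), WRKY18 (1.64) and WRKY47 (1.25). The WRKY18 call was lost in some of the fits that left out 1 library and the other 3 were kept in all. For WRKY38 and WRKY51 the summed effects lie at or below the lowest levels that the counts resolve, so their positive sign says little.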

How the results depend on the processing

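Over 21 comparisons, 293 of 332 alternative counts of called WRKY genes stayed within 1.5 times the reported count. Of 7830 single values under an alternative, 7352 kept direction and side of the threshold, 372 lost their call, 88 gained one and 18 turned round. The 18 belong to WRKY1, WRKY2, WRKY20, WRKY44, WRKY54 and WRKY60, Col-0 shoots minus Col-0 roots, where limma on log2(FPKM + 1), with or without the filter, gave -0.44, -0.38, -0.35, -0.25, -0.17 and -0.17, and log2(FPKM + 0.1) gave -0.45, -0.43, -0.37, -0.32, -0.17 and -0.19. FPKM leaves out the TMM factors, which is by construction. For the counts below the cause was not tested. DESeq2 called 6 genes in nlp2-3 roots, 5 in the double mutant against nlp7-1 in roots and 5 against nlp2-3 in roots. Without the filter, limma on log2(FPKM + 1) called 2 in nlp2-2 roots and 1 in the double mutant against nlp2-3 in roots. A fit of the compared groups alone called 1 in nlp2-3 roots, 0 in the double mutant against nlp2-3 in roots and 15 for the shoot minus root effect of the double mutant.

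Replicate numbers recur in every group. Deviations of same-numbered libraries correlated from -0.206 to 0.502 in roots and from -0.042 to 0.255 in shoots, with 27 and 24 of 45 pairs above 0.1. Their median was 0.138 in roots and 0.104 in shoots, against -0.0633 and -0.0503 for libraries with different numbers. Deviations were taken from the mean of each group and cancel within it. The negative medians therefore largely follow from the positive ones and are no separate contrast. In each tissue 17 of 18 libraries correlated best with a library of their own number. Libraries of the same number thus shared part of their deviations, which the main fits did not take into account. With the replicate block the counts were 5 in nlp2-3 roots, 5 for the double mutant against nlp7-1 and 4 against nlp2-3 in roots, and 12 against nlp7-1 in shoots. The block also called WRKY40 and WRKY29 in double mutant shoots, WRKY54, WRKY14 and WRKY26 in double mutant roots, WRKY62, WRKY46 and WRKY53 in nlp2-2 shoots, WRKY70 in nlp7-1 shoots, WRKY15 in nlp2-3 shoots, WRKY62 and WRKY69 in nlp2-2 roots and WRKY45 and WRKY62 in nlp2-3 roots, which the fit without it did not, and lost WRKY40 in double mutant roots.

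Leaving out 1 library gave ranges of 1 to 3 (nlp2-2), 1 to 3 (nlp2-3), 1 to 2 (nlp7-1) and 9 to 17 (double mutant) calls in roots, and 4 to 8, 13 to 14, 4 to 8 and 17 to 20 in shoots. For the double mutant against nlp2-3 the range was 0 to 6 in roots and 7 to 10 in shoots, and against nlp7-1 it was 1 to 4 in roots and 1 to 5 in shoots. For the shoot interaction it was 3 to 5. For the shoot minus root effect it was 1 to 4 in nlp2-2 (1 without nlp2-2 shoot replicate 1, and 2 without nlp2-2 root replicate 2, Col-4 root replicate 3 or Col-4 shoot replicate 3), 6 to 12 in nlp2-3 (6 without nlp2-3 shoot replicate 2, Col-0 shoot replicate 3 or Col-0 root replicate 2), 3 to 5 in nlp7-1 and 15 to 21 in the double mutant (15 without double mutant root replicate 2). The tissue contrast gave 47 to 49. Calls held in every alternative numbered 4 of 6 in nlp2-2, 11 of 13 in nlp2-3, 4 of 7 in nlp7-1 and 17 of 18 in the double mutant in shoots, and 1 of 4, 1 of 3, 1 of 2 and 7 of 16 in roots. With few counts behind genes near 1 CPM, such as WRKY62 in shoots, small differences were not detectable at this depth.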

Other observations

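Of the 14 genes of salicylic acid synthesis and response tested in roots, 0 were called in nlp2-2 and nlp2-3, 1 was higher in nlp7-1, and 2 were higher and 1 lower in the double mutant. These counts lie near or below the shares of all genes called in the same comparisons. The 3 double mutant calls were CBP60g (log2 fold change 0.90, adjusted p = 0.00811), a regulator of ICS1, EDS5 (0.67, adjusted p = 0.000758), which exports salicylic acid from the plastid, and NPR1 (-0.19, adjusted p = 0.0256), a receptor of it, whose call was lost without double mutant replicate 1 or 2 or Col-0 replicate 1. The nlp7-1 call was EDS5 (0.45, adjusted p = 0.0355), lost in 5 of 6 such fits. MKK9, a MAP kinase kinase, was higher in nlp7-1 roots (1.00, adjusted p = 0.0361) and double mutant roots (1.72, adjusted p = 0.000208), and the nlp7-1 call was lost in 4 of 6 such fits.

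Of the 5 camalexin genes tested in roots, 1 was higher in nlp2-2, 2 were higher in nlp2-3, and 3 were higher and 1 was lower in nlp7-1 and in the double mutant alike. PAD3 had 2.07, 2.51 and 2.14 CPM in double mutant roots, 3.61, 4.26 and 4.44 CPM in nlp7-1 roots and 10.3, 7.24 and 15.7 CPM in Col-0 roots, with log2 fold changes of -2.30 (adjusted p = 0.000869) in the double mutant and -1.44 (adjusted p = 0.0394) in nlp7-1, where the call was lost in 5 of the 6 fits that left out 1 library (adjusted p 0.035 to 0.147). CYP79B2 was higher in the roots of nlp2-2 (0.29, adjusted p = 0.0153), nlp2-3 (0.57, adjusted p = 4.75e-05), nlp7-1 (0.82, adjusted p = 3.42e-07) and the double mutant (1.23, adjusted p = 3.57e-10), of which the nlp2-2 call was lost without nlp2-2 replicate 2 or Col-4 replicate 2. SAG21, a late embryogenesis abundant protein gene of stress and senescence, was lower in double mutant roots (-2.24, adjusted p = 5.27e-08) and in double mutant shoots (-2.31, adjusted p = 2.28e-08).

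FLS2, the flagellin receptor upstream of WRKY22 and WRKY29, was lower in the roots of nlp2-2 (-0.48, adjusted p = 0.00732), nlp2-3 (-0.47, adjusted p = 0.00909) and the double mutant (-1.12, adjusted p = 2.57e-07), and in double mutant shoots (-0.87, adjusted p = 0.000674). Its root calls were lost without nlp2-2 replicate 1 or Col-4 replicate 3 in nlp2-2 and without nlp2-3 replicate 3 in nlp2-3. JAV1, a VQ protein that restrains jasmonate defence, was lower in nlp2-2 shoots (-1.48, adjusted p = 0.0088) and nlp2-3 shoots (-1.34, adjusted p = 0.00989), calls lost without replicate 1 of the mutant or replicate 3 of its wild type, and its values of -0.41 (adjusted p = 0.447) in nlp7-1 and -0.39 (adjusted p = 0.341) in the double mutant missed the threshold. The phosphate transporter genes PHT1;1, PHT1;2 and PHT1;3 are close copies, so how reads were divided among them is uncertain.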
